A study of Bos taurus with 111 samples.

Results

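MT-CO3 (ENSBTAG00000043560), MT-ND3 (ENSBTAG00000043568) and NDUFA3 (ENSBTAG00000007754) are 3 of the 24616 genes counted in muscle of steers of 2 breeds, Charolais (CH) and Holstein Friesian (HF), and were picked by these identifiers. All 3 encode parts of the respiratory chain. They were followed across breed, dietary phase and residual feed intake (RFI) class, with the 2 genes encoded in mitochondrial DNA set against the 1 encoded in the nucleus. The study itself had reported NDUFA3 in CH steers, and the mitochondrial pair among other genes in HF steers, as differentially expressed by RFI class. Both reports concerned the first dietary phase and these same animals, so that the RFI values given here for those cases are not independent evidence.

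RNA came from biopsies of the M. longissimus thoracis et lumborum, a back muscle. CH is a beef breed and HF a dairy breed. Steers of each breed were sampled on a high-concentrate diet (H1) and then on zero-grazed grass, that is grass cut and carried to them (ZG), both while growing, and on the high-concentrate diet again while finishing (H2). RFI is the feed an animal eats beyond what its body weight and growth predict, measured here over 70 days, and in each breed and phase the most efficient steers (L-RFI) and the least efficient (H-RFI) had been chosen. When feeding started the steers were 283 days old on average in CH and 306 days in HF. Mean body weight at the start of H1, ZG and H2 was 395, 519 and 675 kg in CH, and 294, 441 and 611 kg in HF. All animals were castrated males. Diet, age, weight and calendar time changed together and cannot be told apart between phases.

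The respiratory chain in the inner mitochondrial membrane passes electrons from NADH and succinate to oxygen and pumps protons, and ATP synthase uses the resulting gradient. Most of its subunits are encoded in the nucleus and imported, while a small core set is encoded in mitochondrial DNA, transcribed as long precursors that are cut apart, mostly at tRNAs. Skeletal muscle depends on this machinery for sustained work, and oxidative fibres hold more mitochondria than glycolytic ones. MT-CO3 is a core subunit of complex IV (cytochrome c oxidase), MT-ND3 a core subunit of complex I (NADH dehydrogenase), and NDUFA3 a nuclear-encoded accessory subunit in the membrane arm of complex I. In the RefSeq annotation of the bovine mitochondrial genome, which holds 13 protein genes, the genes for these 2 core subunits lie next to each other with 1 tRNA gene and 0 protein genes between them.

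Of 111 libraries, 104 were used, from 77 steers (35 CH and 42 HF), with 7 to 11 libraries in each of the 12 groups of breed, phase and RFI class. Of the 7 left out, 6 held under 1000000 reads on genes and 1 was a deep CH-ZG H-RFI library that the choice of samples excluded. Reads on genes in the libraries used ran from 2201765 to 52552057 (median 15852125.5). A single steer gave 1 library in 52 cases, 2 in 23 and 3 in 2, and 8 steers changed RFI class between phases. The muscle markers ACTA1, CKM and MB could not be looked up, since 0 of these 3 symbols could be paired with an identifier. Gene symbols were paired with identifiers for so few genes that, of 105 respiratory chain and mitochondrial genes in 7 lists, only the 3 genes described here could be found, and the other subunits were not analysed here.

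Every library used held reads on all 3 genes. MT-CO3 was the 5th most abundant of all 24616 genes by mean CPM (reads of a gene per 1000000 reads on genes), MT-ND3 the 25th and NDUFA3 the 2042nd, without correction for gene length. Over the 104 libraries MT-CO3 ran from 9904 to 82659 CPM with a median of 22887, MT-ND3 from 2776 to 28399 with a median of 6609, and NDUFA3 from 10.7 to 107 with a median of 30.2. MT-CO3 and MT-ND3 together took 1.27% to 10.8% of the reads on genes (median 2.95%). Depth did not limit the mitochondrial pair, with at least 96540 and 25419 reads, while the smallest NDUFA3 count was 80 reads, a counting error of 11.2%, against 4.55% at its median count. Counting error is thus far below the spread between libraries, which was 2.51-fold or more from lowest to highest in every group. Nearly all stranded reads on these genes lay on the expected strand (medians of 99.8%, 99.6% and 100%). Only reads with 1 place in the genome were counted, and reads of mitochondrial genes that match a nuclear copy of mitochondrial DNA would be lost, to an extent that was not measured.

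**Figure D1:**
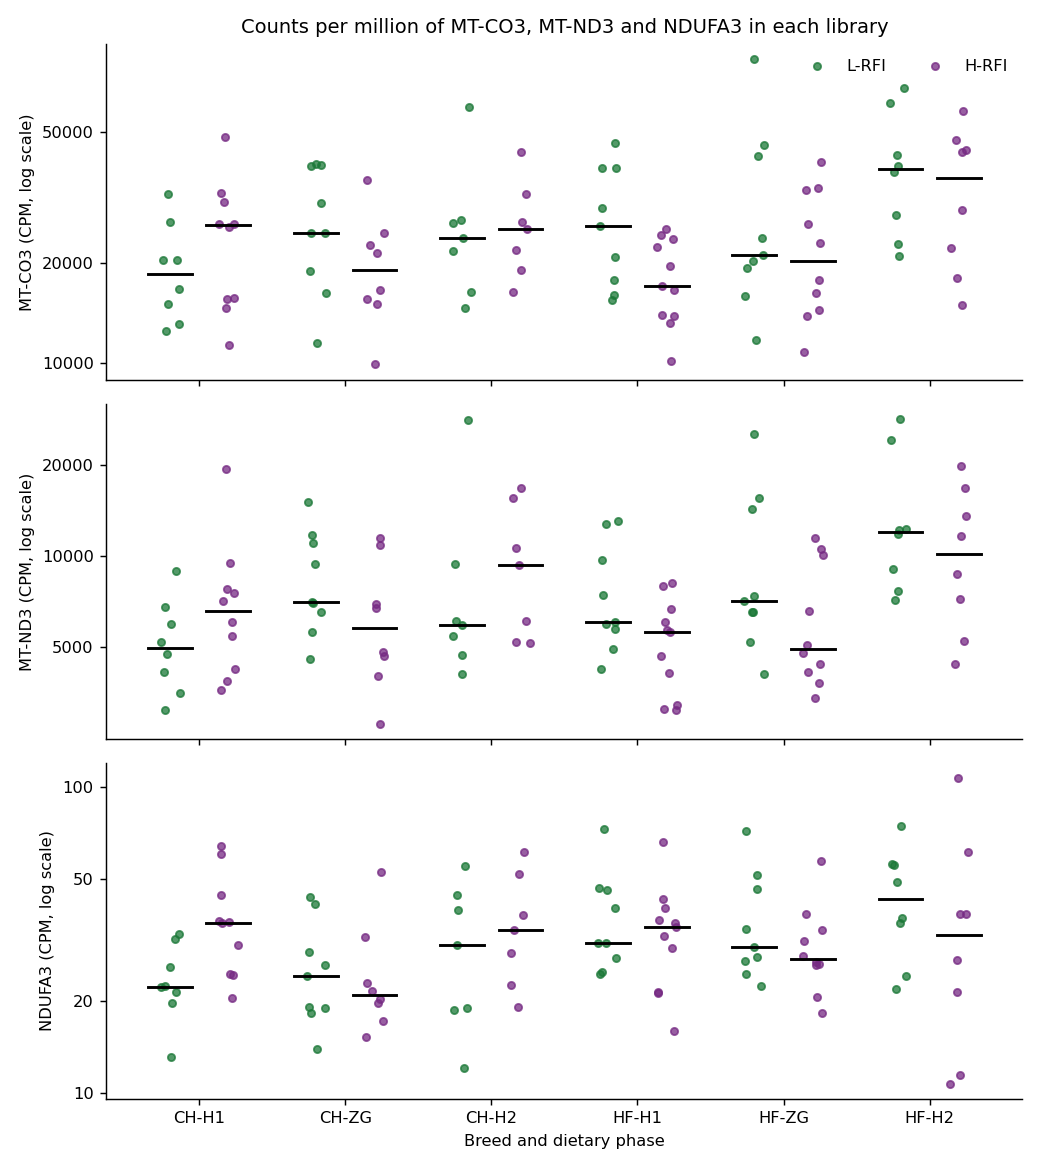
CPM (vertical axis, log scale) of the 3 genes in each of the 104 libraries, by breed and phase along the horizontal axis, with L-RFI libraries in green, H-RFI libraries in purple and black bars at the group medians. The HF-H2 libraries sit highest for MT-CO3 and MT-ND3, with medians of 38538 and 11688 CPM, and L-RFI and H-RFI libraries overlap in every breed and phase.

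The clearest difference for the mitochondrial pair was between phases in HF steers. MT-CO3 in HF-H1 ran from 10121 to 46260 CPM with a median of 20272.5 (n = 20), and in HF-H2 from 14960 to 67884 with a median of 38538 (n = 16). The ranges overlapped, although 14 of the 16 H2 libraries lay above the H1 median and only 3 of the 20 H1 libraries above the H2 median. MT-CO3 was higher in H2 by 1.12 on the log2 scale (SE 0.32), with a Benjamini-Hochberg adjusted p of 0.00800 in a limma voom model of all libraries with the steer as a block. MT-ND3 ran from 3084 to 13025 CPM with a median of 5849 in HF-H1, and from 4383 to 28399 with a median of 11688 in HF-H2. Here too 14 of the 16 H2 libraries lay above the H1 median, and the difference was 1.31 on the log2 scale (SE 0.35, limma adjusted p = 0.00414). The block applies 1 within-steer correlation of 0.13 to every gene, whereas limma estimated −0.34 for MT-CO3 and −0.27 for MT-ND3. These p-values therefore depend on a setting that differs from the estimates for the 2 genes. Without the block the limma adjusted p were 0.0161 for MT-CO3 and 0.00868 for MT-ND3. A gene was called when its adjusted p was under 0.1 and its fold change above 1.5, and both passed. This was common in the contrast as a whole: 1676 of 10291 genes tested were called (16.3%), but only 264 of them, 2.57% of those tested, were higher in H2 as the mitochondrial pair was. NDUFA3 showed no call. It ran from 15.98 to 73.0 CPM with a median of 33.7 in HF-H1, and from 10.7 to 107 with a median of 37.9 in HF-H2, and the estimate was 0.48 (SE 0.29, limma adjusted p = 0.211).

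The size of this phase difference depended on scaling. Scaling by total reads on genes alone, in place of TMM factors, moved the median of all genes by −0.42 and gave 0.73 for MT-CO3 and 0.93 for MT-ND3, with limma adjusted p of 0.00315 and 0.00110, and 0.09 for NDUFA3. Under that scaling 4226 genes were called and only 34 of them were higher in H2, the mitochondrial pair included. The share of reads that fell on no gene was lower in HF-H2, with a median of 9.76% against 13.6% in HF-H1. When that share entered the model as a covariate, an alternative chosen after the data had been seen, MT-ND3 was higher by 0.73 (limma adjusted p = 0.00123) and was called, MT-CO3 was higher by 0.58 (limma adjusted p = 0.00609), just under the 1.5-fold limit, and NDUFA3 stood at −0.01. With the 7 omitted libraries put back, the model called neither MT-CO3 (0.47, limma adjusted p = 0.454) nor MT-ND3 (0.64, adjusted p = 0.330). Weighting libraries by their quality turned NDUFA3 into a call (0.60, limma adjusted p = 0.0290). In fits without the block that left out 1 steer at a time, both mitochondrial genes were called in all 77, with log2 differences of 0.94 to 1.18 for MT-CO3 and 1.11 to 1.39 for MT-ND3. NDUFA3 was called in 1 of these 77 fits.

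Other values moved with the same contrast. The 20 most abundant genes, MT-CO3 among them, took a median of 41.3% of the reads on genes in HF-H1 and 51.0% in HF-H2. Of 4 fat cell markers 2 could be looked up, the fatty acid carrier FABP4 and the lipid droplet protein CIDEC. Both were higher in HF-H2, by 2.11 and 2.43 on the log2 scale (limma adjusted p = 0.000721 and 0.00015). Their summed level ran from 1.64 to 141 CPM in HF-H1 (median 7.49) and from 6.66 to 82.6 in HF-H2 (median 24.4). Neither marker was called between H2 and H1 in CH steers (FABP4 1.06, adjusted p = 0.372, and CIDEC 1.19, adjusted p = 0.293). The other markers that could be looked up were not called in HF H2 over H1: of slow fibre genes MYH6 (0.13), MYL6B (−0.37) and CSRP3 (−0.04), of fast fibre genes MYH4 (−0.17), and 0 of 2 developmental, 0 of 3 immune and 0 of 4 liver genes, with limma adjusted p of 0.136 or more. The blood marker HBD did not pass the filter on low counts. The part of the fat cell markers in the mitochondrial gene values was not tested. In bulk tissue a change in the number of cells of a type and a change of RNA within each cell cannot be told apart.

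**Figure D2:**
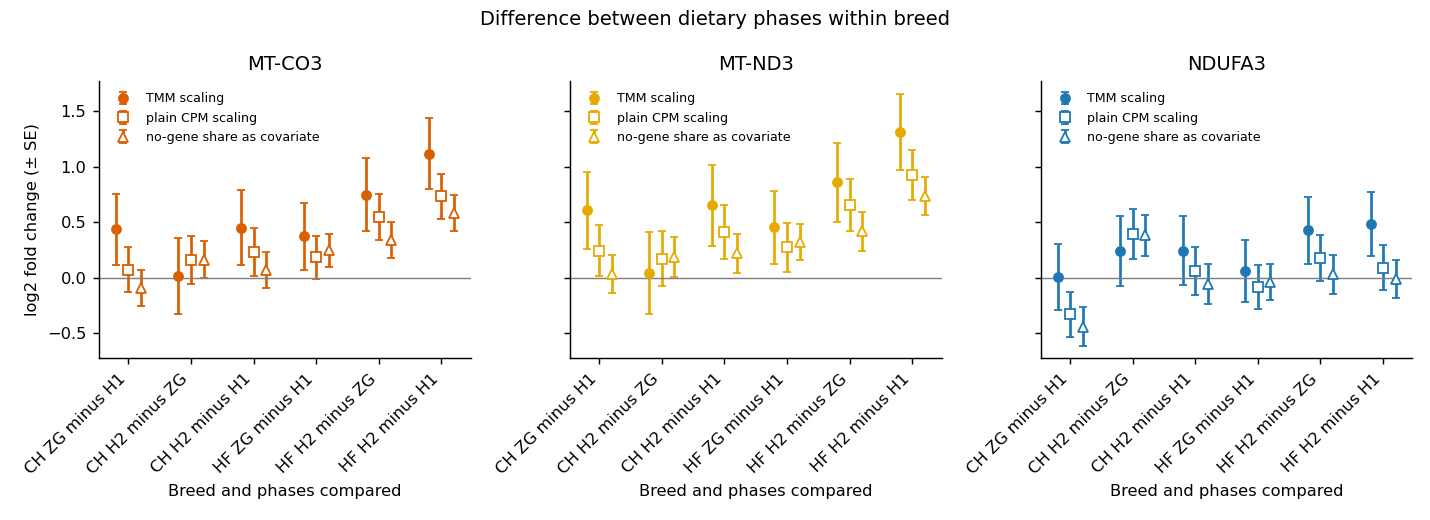
Difference between phases within each breed for MT-CO3, MT-ND3 and NDUFA3, as log2 fold change ± SE (vertical axis), from limma voom with TMM scaling (filled circles), with scaling by total reads alone (open squares) and with the share of reads on no gene as a covariate (open triangles). The HF contrast of H2 with H1 gives 1.12, 0.73 and 0.58 for MT-CO3, and 0.48, 0.09 and −0.01 for NDUFA3.

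The step from ZG to H2 in HF steers went the same way without a call. The HF-ZG libraries had medians of 21226.5 CPM for MT-CO3, 6518 for MT-ND3 and 28.1 for NDUFA3 (n = 19), so the mitochondrial pair stood close to its H1 level. H2 exceeded ZG by 0.75 for MT-CO3 (SE 0.33, limma adjusted p = 0.136), 0.86 for MT-ND3 (SE 0.36, adjusted p = 0.109) and 0.43 for NDUFA3 (SE 0.30, adjusted p = 0.372), in a contrast where 7.03% of genes were called. Of 12 other settings, 1 called MT-CO3, 3 called MT-ND3 and 1 called NDUFA3. All 3 genes were called with quality weights (1.07, 1.19 and 0.66). MT-ND3 was also called with scaling by total reads (0.66, limma adjusted p = 0.0415) or another filter on low counts (0.90, adjusted p = 0.0967). With all libraries the estimates fell to 0.14, 0.25 and 0.38 (limma adjusted p = 0.893, 0.810 and 0.567). With the share of reads on no gene as a covariate they were 0.34, 0.42 and 0.03. Some markers were called in H2 over ZG. The fat cell markers FABP4 (1.21, limma adjusted p = 0.0883) and CIDEC (1.34, adjusted p = 0.0580) were higher in H2. The slow fibre gene MYL6B (−1.07, adjusted p = 0.0930) and the developmental gene ACTC1 (−1.30, adjusted p = 0.0352) were lower. No other marker tested was called, and the part of these markers in the estimates was not tested. From H1 to ZG the HF estimates were 0.37, 0.45 and 0.06 (limma adjusted p of 0.817, 0.757 and 0.976, with 0.69% of genes called). These 3 HF contrasts share libraries.

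In CH steers none of the 3 genes was called between phases. MT-CO3 had medians of 20437 CPM in CH-H1 (n = 18), 22675 in CH-ZG (n = 17) and 24628 in CH-H2 (n = 14), and each phase spanned at least a 4-fold range. MT-ND3 had medians of 5680, 6940 and 6085 CPM, and NDUFA3 of 28.2, 21.5 and 32.3. NDUFA3 was thus lowest in ZG by its medians, while the mitochondrial pair was not. For H2 over H1 the estimates were 0.45 (SE 0.34), 0.65 (SE 0.36) and 0.24 (SE 0.31), with limma adjusted p of 0.536, 0.393 and 0.717 and 2.71% of genes called. ZG over H1 gave 0.44, 0.61 and 0.00 (adjusted p = 0.398, 0.281 and 0.998, with 2.4% of genes called), and H2 over ZG 0.02, 0.04 and 0.24 (adjusted p = 0.998, 0.995 and 0.934, with 1.11% called). The CH and HF phase patterns were not shown to differ. The test of the breed by phase interaction gave unadjusted p of 0.242, 0.247 and 0.845 for MT-CO3, MT-ND3 and NDUFA3, and called 0 of 10291 genes (0%), with 547 at an unadjusted p under 0.05 in limma and 1 called by edgeR. With quality weights limma called 3228 genes, among them MT-ND3 (adjusted p = 0.0629), by adjusted p alone, since this test has no fold limit.

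Some steers were sampled in both concentrate phases, which shows the change within an animal. In both breeds some of these had also changed RFI class between H1 and H2, so phase and class are mixed there. In 5 of 5 HF steers MT-CO3 was higher in H2 than in H1, by 0.54 to 2.10 on the log2 CPM scale (median 1.502). MT-ND3 was higher in the same 5 by 0.88 to 2.14 (median 2.01), and NDUFA3 was higher in 4 of 5, from −0.53 to 1.53 (median 0.85). In CH steers each of the 3 genes was higher in 3 of 6 and lower in the others, from −1.55 to 2.02 for MT-CO3, −1.91 to 2.73 for MT-ND3 and −1.52 to 1.18 for NDUFA3. The mitochondrial pair thus moved 1 way in the HF steers and both ways in the CH steers. By CPM, the CH steers in which the 3 genes were higher had all changed RFI class. Those in which they were lower had all kept it, and most of the HF steers had kept it too. Breed and change of class are therefore not separated in these steers. With TMM-scaled CPM, MT-CO3 was higher in 2 of 6 CH steers and NDUFA3 in 5 of 5 HF steers. These libraries also entered the model above, and they add no separate evidence.

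**Figure D3:**
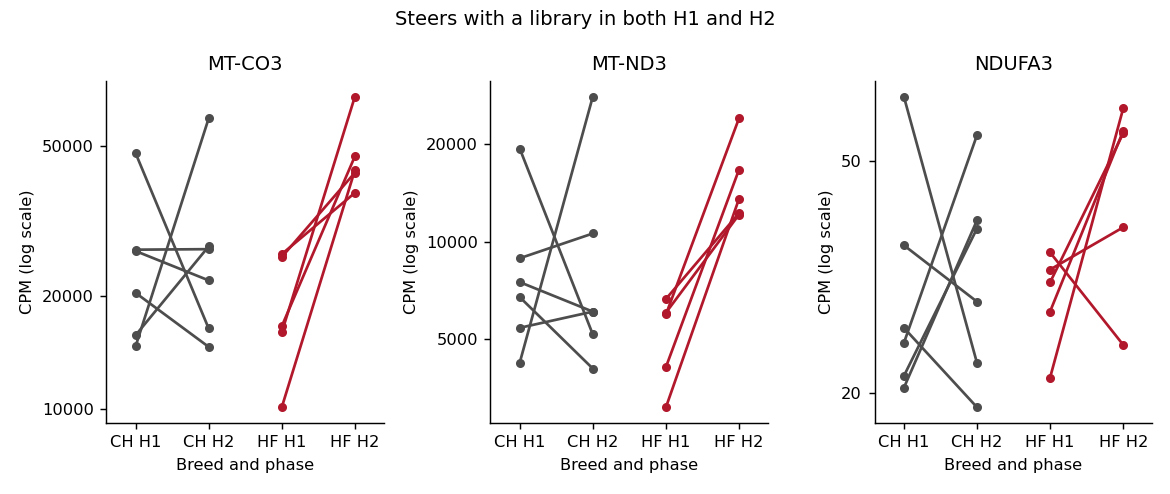
CPM (vertical axes, log scale) in H1 and H2 of the steers that gave a library in both phases, joined by a line for each steer, with 6 CH steers in grey and 5 HF steers in red. MT-CO3 and MT-ND3 rise in 5 of 5 HF lines and in 3 of 6 CH lines, and NDUFA3 in 4 of 5 HF lines.

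The mitochondrial genes can be set against NDUFA3 within each library, where the scaling cancels. The log2 ratio of MT-CO3 to NDUFA3 reads had a median of 9.28 in HF-H1 (8.28 to 10.2), 9.52 in HF-ZG and 9.85 in HF-H2 (9.07 to 10.8). For MT-ND3 the medians were 7.57 in HF-H1 (6.56 to 8.31), 7.58 in HF-ZG and 8.42 in HF-H2 (7.53 to 8.98). In HF steers both ratios were therefore highest in H2, with overlapping ranges. In CH steers both were highest in ZG: the MT-CO3 ratio had medians of 9.53, 9.94 and 9.49 in H1, ZG and H2, and the MT-ND3 ratio 7.72, 8.36 and 7.91. The ratio of MT-CO3 to MT-ND3 stayed between medians of 1.63 and 1.86 in the 6 sets of breed and phase. These ratios are a description and were not tested.

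None of the 3 genes was called between the breeds. CH minus HF was 0.09, 0.08 and −0.12 for MT-CO3, MT-ND3 and NDUFA3 in H1 (SE 0.31, 0.34 and 0.29, limma adjusted p = 1.00 for each, with 0.262% of genes called). In ZG it was 0.15, 0.23 and −0.17 (SE 0.32, 0.35 and 0.30, adjusted p = 0.825, 0.754 and 0.790, with 1.69% called). With the share of reads on no gene as a covariate, NDUFA3 in ZG was −0.57 (limma adjusted p = 0.0541), just under the 1.5-fold limit. Scaling by total reads gave −0.44 (limma adjusted p = 0.174). Over 12 other settings this NDUFA3 value ran from −0.57 to −0.12, with 0 calls. Of the markers, FABP4 (−1.92, limma adjusted p = 0.0483), the developmental gene ACTC1 (−1.31, adjusted p = 0.0804) and the immune gene LYZ (−1.66, adjusted p = 0.0924) were called in ZG. No other marker was called between breeds in any phase. In H2 the HF steers had the higher levels of MT-CO3, MT-ND3 and NDUFA3, by −0.58, −0.58 and −0.36 (SE 0.36, 0.38 and 0.33). The limma adjusted p were 0.743, 0.780 and 0.887, with 0.223% of genes called. Ordered by median, MT-CO3 went from HF-H1 through CH-H1, HF-ZG, CH-ZG and CH-H2 to HF-H2. Only its last step, of 13911 CPM, was larger than the smaller SD of the neighbouring sets (11937 CPM). The last step of MT-ND3, from 6940 CPM in CH-ZG to 11688 in HF-H2, was also the only one of its steps to exceed that SD (3370 CPM). Neighbours in the order of NDUFA3, from CH-ZG through HF-ZG, CH-H1, CH-H2 and HF-H1 to HF-H2, all differed by less than their SD.

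RFI class was compared within each breed and phase by edgeR's quasi-likelihood test, L-RFI over H-RFI. No gene of the genome was called in any of the 6 comparisons (0% of 9823 to 10812 genes), so none of the 3 genes was. The study's own calls of NDUFA3 in CH-H1 and of the mitochondrial pair in HF-H1 were thus not reproduced by this test. The study had used edgeR's exact test, whose calls here are given below, and reported more steers per class than the libraries used here. The directions were the same as in the study, in the same animals. NDUFA3 was lower in L-RFI steers in CH-H1, and the mitochondrial pair was higher in them in HF-H1. Unadjusted p fell under 0.05 for 216 of 10596, 79 of 9823 and 89 of 10070 genes in CH-H1, CH-ZG and CH-H2. In HF-H1, HF-ZG and HF-H2 it did so for 317 of 10812, 1228 of 10571 and 72 of 9936. Only in HF-ZG did this share exceed 0.05, the share that would fall there if no gene differed. The exact test called 2 genes in CH-H1 and 1 in CH-H2, DESeq2 2 in CH-H1, 2 in CH-H2 and 1 in HF-ZG, and limma with quality weights 1742 in HF-ZG, and these did not include the 3 genes.

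In HF-H1 the mitochondrial pair was higher in L-RFI steers by unadjusted p. MT-CO3 ran from 15538 to 46260 CPM in L-RFI (median 25866, n = 9) and from 10121 to 25410 in H-RFI (median 17090, n = 11). Of the 9 L-RFI libraries 5 lay above the highest H-RFI library, and 4 of the 11 H-RFI libraries lay below the lowest L-RFI one. The log2 difference was 1.05 (SE 0.33) with p = 0.00378 before and 1.00 after Benjamini-Hochberg adjustment in edgeR. MT-ND3 ran from 4230 to 13025 CPM in L-RFI (median 6040) and from 3084 to 8116 in H-RFI (median 5587), a log2 difference of 0.98 (SE 0.34, edgeR p = 0.00845 unadjusted and 1.00 adjusted). NDUFA3 had medians of 31.1 CPM in L-RFI (24.6 to 73.0) and 34.9 in H-RFI (15.98 to 66.4), with an estimate of 0.53 (SE 0.34, edgeR p = 0.132 unadjusted). Without L-RFI replicate 6 the NDUFA3 estimate was 0.28. That library held the highest NDUFA3 level of its class, and 35.0% of its reads mapped to several places and 13.3% to none. The direction of the NDUFA3 medians in CPM was opposite to that of the fitted value, with or without that library. In TMM-scaled CPM the NDUFA3 medians were 32.6 in L-RFI and 26.9 in H-RFI. Scaling by total reads alone moved the median of all genes in this comparison by −0.22 and gave 0.60, 0.55 and 0.15. The share of reads on no gene had a median of 10.6% in L-RFI and 14.0% in H-RFI, and its part in the difference was not tested within this comparison.

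In CH-H1 all 3 genes lay higher in H-RFI steers, and NDUFA3 most of all. NDUFA3 ran from 13.1 to 33.2 CPM in L-RFI (median 22.3, n = 8) and from 20.4 to 64.5 in H-RFI (median 36.1, n = 10). None of the 8 L-RFI libraries reached the H-RFI median, and 6 of the 10 H-RFI libraries lay above the highest L-RFI one. The log2 difference, L-RFI minus H-RFI, was −0.84 (SE 0.33), with p = 0.0173 before and 0.999 after adjustment in edgeR. MT-CO3 had medians of 18568 CPM in L-RFI (12483 to 32287) and 26080 in H-RFI (11343 to 48015), and MT-ND3 of 4946 (3079 to 8893) and 6565 (3586 to 19401). Their estimates were −0.45 (SE 0.39, edgeR p = 0.265 unadjusted) and −0.68 (SE 0.41, p = 0.112 unadjusted). Without H-RFI replicate 5, the highest library for all 3 genes, these became −0.19 and −0.26, and NDUFA3 −0.63. The H-RFI libraries were deeper, with a median of 26941923 reads on genes against 13500619, and the share of reads on no gene was alike, with medians of 12.7% and 12.9%. With quality weights the mitochondrial pair turned to 0.16 and 0.12.

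The RFI difference thus had opposite signs in H1 in the 2 breeds, but the contrast of the breeds was not past the threshold. HF-H1 minus CH-H1 was 1.14 for MT-CO3 (SE 0.63), 1.24 for MT-ND3 (SE 0.67) and 1.05 for NDUFA3 (SE 0.58), with unadjusted p of 0.0737, 0.0689 and 0.0732 and adjusted p of 1.00 in limma. With quality weights the contrast was 0.37, 0.45 and 0.42 (limma unadjusted p = 0.447, 0.362 and 0.287). With the share of reads on no gene as a covariate it was 0.62, 0.68 and 0.67 (limma unadjusted p = 0.0466, 0.0422 and 0.0484, each 1.00 adjusted). This test called 0 of 10291 genes (0%), with 55 at an unadjusted p under 0.05, and no setting tried called any. Over all 6 comparisons the test of unequal RFI differences gave unadjusted p of 0.514, 0.335 and 0.254 for MT-CO3, MT-ND3 and NDUFA3, and called 0 genes (0%), with 108 at an unadjusted p under 0.05 and 1 called with quality weights.

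**Figure D4:**
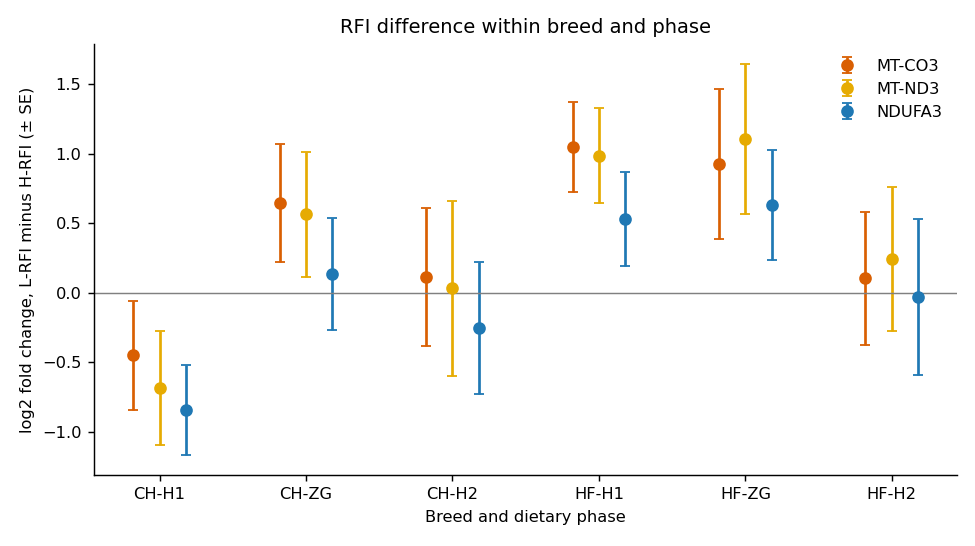
Log2 fold change ± SE of L-RFI over H-RFI steers (vertical axis) for the 3 genes in each breed and phase (horizontal axis), from edgeR with TMM scaling. The values for MT-CO3 run from −0.45 in CH-H1 to 1.05 in HF-H1, and those for NDUFA3 from −0.84 in CH-H1 to 0.63 in HF-ZG.

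On zero-grazed grass the mitochondrial pair was higher in L-RFI steers of both breeds, without a call. In HF-ZG the L-RFI libraries had medians of 21226.5 CPM for MT-CO3 (11714 to 82659), 7107 for MT-ND3 (4069 to 25264) and 30.0 for NDUFA3 (22.4 to 72.1), with n = 9. The H-RFI medians were 20395 (10779 to 40540), 4913 (3389 to 11473) and 27.5 CPM (18.2 to 57.6), with n = 10. The estimates were 0.92 (SE 0.54), 1.11 (SE 0.54) and 0.63 (SE 0.39), with edgeR adjusted p of 0.381, 0.381 and 0.388. They rested partly on L-RFI replicate 4, which held the highest MT-CO3 level of all libraries, and were 0.32, 0.56 and 0.20 without it. The share of reads on no gene had a median of 12.2% in HF-ZG L-RFI (6.21% to 15.3%) and 15.5% in H-RFI (7.53% to 17.0%). Liver markers had lower estimates in L-RFI, namely ALB −2.17, FGB −2.76, FGG −2.84 and ORM1 −2.57, each with an edgeR adjusted p of 0.381. The summed level of these 4 genes ran from 28.8 to 434 CPM in L-RFI (median 137) and from 18.1 to 13790 in H-RFI (median 143). Of immune markers PTPRC was −1.67, LYZ −1.55 and CD3E −0.59 (edgeR adjusted p = 0.381, 0.381 and 0.523), with summed levels of 0.994 to 20.2 CPM in L-RFI (median 4.12) and 2.34 to 103 in H-RFI (median 15.5). The part of these values in the HF-ZG estimates was not tested. In CH-ZG the medians of L-RFI (n = 9) and H-RFI (n = 8) were 24657 and 19042 CPM for MT-CO3, 7028 and 5765 for MT-ND3, and 24.2 and 20.9 for NDUFA3. The CH-ZG estimates were 0.65 (SE 0.43), 0.56 (SE 0.45) and 0.14 (SE 0.40), each with an edgeR adjusted p of 1.00. Without H-RFI replicate 3 the NDUFA3 value was 0.61, and without L-RFI replicate 5 it was −0.06.

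In the finishing phase the RFI differences were smaller than their errors. In HF-H2 the medians of L-RFI and H-RFI (n = 8 each) were 38538 and 36095 CPM for MT-CO3, 11949 and 10150 for MT-ND3, and 43.1 and 32.9 for NDUFA3. The estimates of 0.10 (SE 0.48), 0.24 (SE 0.51) and −0.03 (SE 0.56) were each smaller than 1 SE. In CH-H2 the medians (n = 7 each) were 23809 and 25446 CPM, 5904 and 9294 CPM, and 30.5 and 34.2 CPM. The estimates were 0.11 (SE 0.50), 0.03 (SE 0.63) and −0.25 (SE 0.47), and they rested on single libraries. Without L-RFI replicate 7, the highest of its class for all 3 genes, they were −0.49, −0.96 and −0.66, and without H-RFI replicate 4 they were 0.43, 0.30 and 0.08. All edgeR adjusted p in H2 were 1.00. At these standard errors a difference of 1.5-fold could not have been told from none.

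Within groups the 3 genes varied together from steer to steer. Deviations of log2(CPM + 1) from the group mean, averaged for each of the 77 steers, correlated at r = 0.91 (rho = 0.92) between MT-CO3 and MT-ND3. Between NDUFA3 and MT-CO3 they correlated at r = 0.63 (rho = 0.61), and between NDUFA3 and MT-ND3 at r = 0.63 (rho = 0.62). Each had a permutation p of 1e-05, the smallest that 100000 resamples can give, and 2e-05 after adjustment over the 12 relations computed. Without the 2 steers farthest from the median on the first gene, r was 0.92, 0.60 and 0.59. The mitochondrial neighbours therefore followed each other more closely than either followed the nuclear gene, although that difference was not tested.

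The same deviations followed the make-up of the libraries. All 3 genes were lower where more reads fell on no gene, with r of −0.77 for MT-CO3, −0.77 for MT-ND3 and −0.59 for NDUFA3 (rho −0.79, −0.77 and −0.59, permutation p = 1e-05 and adjusted p = 2e-05 for each). Leaving out the 2 farthest steers gave −0.76, −0.75 and −0.56. They were also lower in deeper libraries, with r of −0.35, −0.33 and −0.28 against log10 reads on genes (rho −0.36, −0.30 and −0.31, permutation adjusted p of r 0.00264, 0.00495 and 0.0201). Without the 2 farthest steers these were −0.34, −0.30 and −0.27. For the share of reads mapping to several places r was −0.01, −0.03 and 0.16 (permutation adjusted p = 0.930, 0.905 and 0.191) but rho was −0.34, −0.35 and −0.23 (adjusted p = 0.00401, 0.00315 and 0.0452), and r without the 2 farthest steers was −0.21, −0.18 and −0.16.

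**Figure D5:**
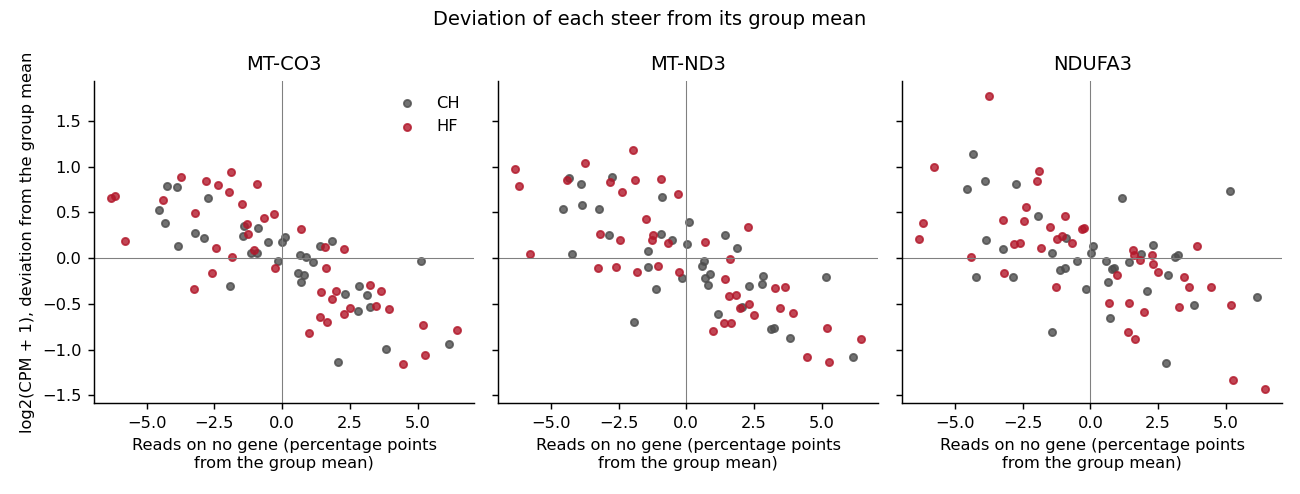
Deviation of each of the 77 steers from its group mean in log2(CPM + 1) of the 3 genes (vertical axis) against its deviation in the share of reads on no gene (horizontal axis, percentage points), with CH steers in grey and HF steers in red. All 3 clouds fall from left to right, with r of −0.77, −0.77 and −0.59.

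Across all 104 libraries and 10291 genes, in deviations of log2 TMM-scaled CPM from the group means, MT-CO3 and MT-ND3 were each other's most similar gene (r = 0.96, against a median of −0.10 and −0.11 over all genes). NDUFA3 ranked 64th for MT-CO3 (r = 0.85) and 47th for MT-ND3 (r = 0.85). Of the genes whose symbol could be looked up, the one most like all 3 was ZMIZ2, a transcriptional coactivator, at ranks 22, 27 and 14 (r = 0.87, 0.86 and 0.88). The gene most like NDUFA3, ENSBTAG00000002579, had r = 0.90 and no symbol in the sources used here. These values share the libraries and their scaling and are a description.

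A steer's standing in 1 phase was not shown to carry over to another. Of 25 steers with several libraries, 10 lay on the same side of their group mean in the first and the last phase sampled for MT-CO3, 12 for MT-ND3 and 5 for NDUFA3. The deviations correlated at r = −0.25, −0.16 and −0.31 (rho −0.22, −0.12 and −0.27, permutation adjusted p of r 0.341, 0.446 and 0.341), and at −0.14, −0.13 and −0.24 without the 2 farthest steers. The within-steer correlation that limma estimated for each gene was −0.34, −0.27 and −0.49 for MT-CO3, MT-ND3 and NDUFA3, in the lowest 1.89, 3.35 and 0.768 percent of 10291 genes, whose median was 0.09.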

How the data were processed

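Stranded mRNA libraries of muscle biopsies were read from 1 end. Reads had been trimmed (cutadapt) and aligned with STAR 2.5.1 by the authors, who deposited the raw counts per gene that STAR reports, with no normalization or filter. The study's methods name ARS-UCD1.2 with an Ensembl annotation as the genome, whereas the submitters' processing notes name UMD3.1, so no coordinates are given. The reverse-strand counts of the 104 libraries with at least 1000000 reads on genes were used, without 1 further library. Groups were taken from the deposited labels, and 0 pairs of libraries were identical.

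From these counts CPM were computed. RFI classes were compared with edgeR 4.0.16 (quasi-likelihood, TMM factors, genes with 1 CPM or more in at least 50% of samples). Breed, phase, interaction and differences of RFI effects came from limma 3.58.1 voom on all libraries with RFI class and the steer as a block (consensus correlation 0.13, and 0.10 with 12 group means). Calls needed a Benjamini-Hochberg adjusted p under 0.1 and a fold change above 1.5, as in the study. The steer pairs libraries because they come from the same animal, as the labels show. Relations used permutation tests. The tests were also run on simulated counts with known changes, drawn independently for each library. That simulation held no correlation within a steer, so it does not show how the block performs. Other tests (DESeq2 1.42.0 among them), scalings, filters, weights, covariates and sets of libraries were tried. Software was R 4.3.3, Python 3.11.15, scipy 1.17.1 and pandas 2.3.3.

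The genes, lists and tests were chosen with earlier results of these data known. Named were the 3 genes and the genes most alike in pattern. Of the fixed lists, genes whose symbol could be paired with an identifier were named where called, and some others as markers. Names came from the study's own text and tables. RefSeq names (ARS-UCD2.0) served only for the order of mitochondrial genes. Nothing says that biopsies were repeated within a phase. The p-values therefore measure the spread between libraries, in which variation of steers and variation of biopsies or libraries cannot be told apart.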

Additional observations from a re-analysis of the deposited data

Results flagged for a closer look

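In 7 sets of a gene and a group, out of 33 sets tested, the highest library stood apart from the others by Dixon's criterion on CPM. The criterion flags about 1 in 20 sets by chance when values are normally distributed, which was not shown for CPM. The sets are also not independent, since the genes varied together within groups. The count of 7 can therefore not be set against that rate. MT-CO3 reached 59388 CPM in 1 CH-H2 L-RFI library (next 27112) and 82659 CPM in 1 HF-ZG L-RFI library (next 45658). MT-ND3 reached 28069 CPM in that same CH-H2 L-RFI library (next 9384) and 19401 CPM in 1 CH-H1 H-RFI library (next 9485). NDUFA3 reached 52.7 CPM in 1 CH-ZG H-RFI library (next 32.3), 73.0 CPM in 1 HF-H1 L-RFI library (next 46.8) and 57.6 CPM in 1 HF-ZG H-RFI library (next 38.5). No cause was tested.

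The 7 libraries that were left out also held reads on these genes. MT-CO3 ran from 11738 to 37638 CPM and MT-ND3 from 3584 to 11197 CPM in all 7. NDUFA3 had more than 3 reads in 3 of them, from 6.51 CPM in the deep CH-ZG H-RFI library to 34.2 CPM. The MT-CO3 and MT-ND3 levels lay within the range of the libraries used, and the lowest NDUFA3 level lay below it.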

How the results depend on the processing

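Of 666 values of the 3 genes under other settings, 617 kept their direction and their side of the threshold, 39 turned direction, 7 gained a call and 3 lost one. No value that was called turned direction, and the 3 lost calls are those of the phase difference in HF steers between H2 and H1 given above. The causes were not tested, beyond what the settings themselves change. The labels pair no replicate numbers across phases, so the replicate block was the steer: without it limma called 11 genes between breeds in H2 and gave 1.06 for MT-CO3 and 1.25 for MT-ND3 in HF H2 over H1 (adjusted p = 0.0161 and 0.00868), and it changed no call of the 3 genes. Depth limits NDUFA3 most, and standard errors of 0.3 to 0.6 on the log2 scale limit all comparisons.

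Values that turned direction are given on the log2 scale. With quality weights within a comparison, MT-CO3 and MT-ND3 were 0.16 and 0.12 for RFI in CH-H1 and −0.035 and −0.30 in CH-H2, and NDUFA3 was 0.64 in HF-H2. With quality weights in the model of all libraries, MT-CO3 and MT-ND3 were −0.15 and −0.046 for breed in H1, MT-ND3 was −0.018 for CH H2 over ZG, and MT-CO3 and NDUFA3 were −0.028 and −0.056 for HF ZG over H1. With all 111 libraries, MT-CO3 and MT-ND3 were −0.058 and −0.098 for RFI in CH-H2, −0.36 and −0.31 for breed in ZG, 0.043 and 0.057 for breed in H2 and −0.15 and −0.022 for CH ZG over H1, and NDUFA3 was 0.017 for RFI in HF-H2 and −0.13 for CH ZG over H1. The share of reads on no gene as a covariate gave −0.30 and −0.27 for MT-CO3 and MT-ND3 for breed in ZG, −0.092 for MT-CO3 in CH ZG over H1, and for NDUFA3 −0.44 in CH ZG over H1, −0.062 in CH H2 over H1, −0.039 in HF ZG over H1 and −0.010 in HF H2 over H1. Scaling by total reads gave −0.098 and −0.026 for MT-CO3 and MT-ND3 for breed in ZG, −0.11 for MT-ND3 in RFI CH-H2, and for NDUFA3 0.17 in RFI HF-H2, −0.33 in CH ZG over H1 and −0.086 in HF ZG over H1. Log10 reads on genes as a covariate gave −0.21 and −0.63 for MT-CO3 and MT-ND3 in RFI CH-H2, 1 model of all libraries −0.19 for MT-ND3 in CH-H2 and 0.52 for NDUFA3 in HF-H2, RLE factors −0.031 for NDUFA3 in CH ZG over H1, and edgeR without the block −0.073 for MT-CO3 for breed in ZG. Among relations, all 111 libraries gave −0.086, 0.0017 and 0.46 for MT-CO3, MT-ND3 and NDUFA3 against log10 reads on genes, and TMM-scaled CPM gave 0.041 and 0.028 for MT-CO3 and MT-ND3 against reads mapping to several places.

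With 1 library left out, the RFI values that turned ran from −0.49 to 0.43 for MT-CO3, −0.96 to 0.30 for MT-ND3 and −0.66 to 0.076 for NDUFA3 in CH-H2, from −0.062 to 0.61 for NDUFA3 in CH-ZG, and from −0.060 to 0.35, −0.059 to 0.53 and −0.24 to 0.51 for MT-CO3, MT-ND3 and NDUFA3 in HF-H2.

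Counts of genes called moved by over 1.5 times as follows. RFI calls were 2 in CH-H1 and 1 in CH-H2 by the exact test, 2, 2 and 1 in CH-H1, CH-H2 and HF-ZG by DESeq2, and 1742 in HF-ZG with quality weights. Breed calls in H1, ZG and H2 were 136, 876 and 218 with quality weights, 8, 4 and 1 with all libraries, 14, 81 and 7 at an adjusted p under 0.05, 45, 362 and 37 without a fold limit, and 61 in H1 and 68 in H2 with the covariate of reads on no gene. Scaling by total reads gave 699 in ZG and 2 in H2, edgeR without the block 323 in ZG, and no filter 10 in H2. For CH ZG over H1 the counts were 683 with weights, 41 with all libraries, 137 at 0.05, 639 without a fold limit and 1812 by total reads. CH H2 over ZG gave 45 with all libraries, 177 with the covariate, 176 without a fold limit and 39 by total reads. CH H2 over H1 gave 458 with weights, 44 with all libraries, 423 with the covariate, 185 at 0.05, 455 without a fold limit, 172 by edgeR, 531 by total reads and 504 without a filter. HF ZG over H1 gave 16 with all libraries, 117 with the covariate and 145 without a fold limit, and HF H2 over ZG 1998 with weights, 227 with all libraries, 1461 without a fold limit, 479 by edgeR and 1833 by total reads. HF H2 over H1 gave 901 with all libraries, 742 with the covariate, 3414 without a fold limit, 995 by edgeR, 4226 by total reads and 846 to 1778 with 1 steer left out. The interaction gave 3228 with weights and 1 by edgeR, and the 6 RFI comparisons 1 with weights. By total reads the calls higher in the first-named set were 11 of 699 for breed in ZG, 27 of 1812, 10 of 39 and 15 of 531 in the CH contrasts in the order above, and 13 of 49, 19 of 1833 and 34 of 4226 in the HF contrasts.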
